A study of Mus musculus with 5 samples.

Results

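The immune cells described here are live CD45-positive cells of B16-F10 tumors from mice given an anti-PD1-IL15 protein fusion, set against the same sort from mice given an IL15 superagonist alone. They were chosen by the treatment in the labels, keeping barcodes with at most 10% of their unique molecular identifiers (UMIs, the counted transcripts) from mitochondrial genes. This left 15344 of the 37468 barcodes in the 5 libraries of the series, of which 8657 came from the fusion library and 6687 from the IL15 superagonist library. B16-F10 is a mouse melanoma line. Per the labels, 500000 tumor cells were injected under the skin, tumors were resected on day 11, and treatment is placed after resection, an order that the sources used here do not explain. About 16000 sorted cells were loaded per library of a 5' droplet kit. Fusion and IL15 superagonist each have 1 library, and the number of mice behind a library, the doses and the mouse strain are unknown from the labels. Cells of 1 library share their source and are not replicates, so no difference below has a replicate check or a test; intervals are 95% and cover counting error only.

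Survival and division of natural killer (NK) cells and memory-type CD8 T cells depend on interleukin 15, which signals over the beta and gamma chains Il2rb and Il2rg to STAT5 transcription factors. The Pdcd1 gene encodes PD-1, a brake on activation that T cells carry after repeated contact with antigen, as in tumors. An antibody against PD-1 joined to interleukin 15 can therefore bind cells that carry PD-1, a feature that the superagonist alone lacks.

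The fusion library held 81565425 UMIs in 8747 barcodes, with a median of 7851 per barcode, and the IL15 superagonist library held 39479966 UMIs in 6779 barcodes, with a median of 4279. The mitochondrial limit removed 90 barcodes from fusion and 92 from IL15 superagonist. Of the barcode sequences, 83 occurred in both libraries. Ptprc, which encodes CD45, had a UMI in 92.2% of the fusion cells and 91.2% of the IL15 superagonist cells. The melanoma gene Pmel had a UMI in 0.566% of the fusion cells and 1.00% of the IL15 superagonist cells.

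CD8 T cells made up most of the fusion library, and each of the other classes was a smaller share there. Cells were classed by UMIs of marker genes: Cd3e or Cd3d with Cd8a or Cd8b1 for CD8 T-like cells, with Cd4 for CD4 T-like cells and with Foxp3 for Treg-like cells. Ncr1 without Cd3 marked NK-like cells, C1qa, C1qb and C1qc macrophage-like cells, Ly6c2 and Chil3 monocyte-like cells, Cd209a cDC2-like cells and Xcr1 cDC1-like cells, the last pair being classes of conventional dendritic cells. CD8 T-like cells were 6778 of the 8657 fusion cells, or 78.3% (interval 77.4% to 79.2%), against 2073 of the 6687 IL15 superagonist cells, or 31.0% (29.9% to 32.1%). The ratio of these shares, fusion over IL15 superagonist, was 2.53 (2.40 to 2.65). NK-like cells were 178 cells or 2.06% in fusion and 864 cells or 12.9% in IL15 superagonist, a share 6.28-fold lower in fusion (5.34 to 7.43). This gate leaves out cells with both Ncr1 and Cd3. Of T cells that met no named T-cell gate, 150 of 627 in fusion and 175 of 1186 in IL15 superagonist had an Ncr1 UMI. The fold therefore holds for this gate only.

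The regulatory and helper compartments were small in both libraries. Treg-like cells, which restrain other T cells, were 18 cells or 0.208% in fusion and 58 cells or 0.867% in IL15 superagonist, 4.17-fold lower in fusion (2.42 to 7.52). CD4 T-like cells were 40 cells or 0.462% in fusion and 104 cells or 1.56% in IL15 superagonist. There were 377 CD8 T-like cells per Treg-like cell in fusion (238 to 636) and 35.7 in IL15 superagonist (27.5 to 47.2). For each NK-like cell there were 38.1 CD8 T-like cells in fusion and 2.40 in IL15 superagonist.

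Macrophage-like cells were 325 cells or 3.75% in fusion and 731 cells or 10.9% in IL15 superagonist, and monocyte-like cells were 246 cells or 2.84% in fusion and 673 cells or 10.1% in IL15 superagonist. The cDC2-like share was 7.51-fold lower in fusion (4.31 to 13.99), with 15 cells or 0.173% in fusion and 87 cells or 1.30% in IL15 superagonist. The cDC1-like share was 0.335% in fusion, from 29 cells, and 0.942% in IL15 superagonist, from 63 cells. Shares of 1 library add up to a whole, so a larger CD8 T-like share lowers the others without any change in their number. Within the myeloid gates alone, macrophage-like cells were 52.8% in fusion and 47.0% in IL15 superagonist, and monocyte-like cells 40.0% in fusion and 43.3% in IL15 superagonist. The cDC2-like share of the myeloid gates remained lower, at 2.44% in fusion (1.37% to 3.99%) and 5.60% in IL15 superagonist (4.51% to 6.86%), and the cDC1-like share was 4.72% in fusion and 4.05% in IL15 superagonist.

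**Figure D1:**
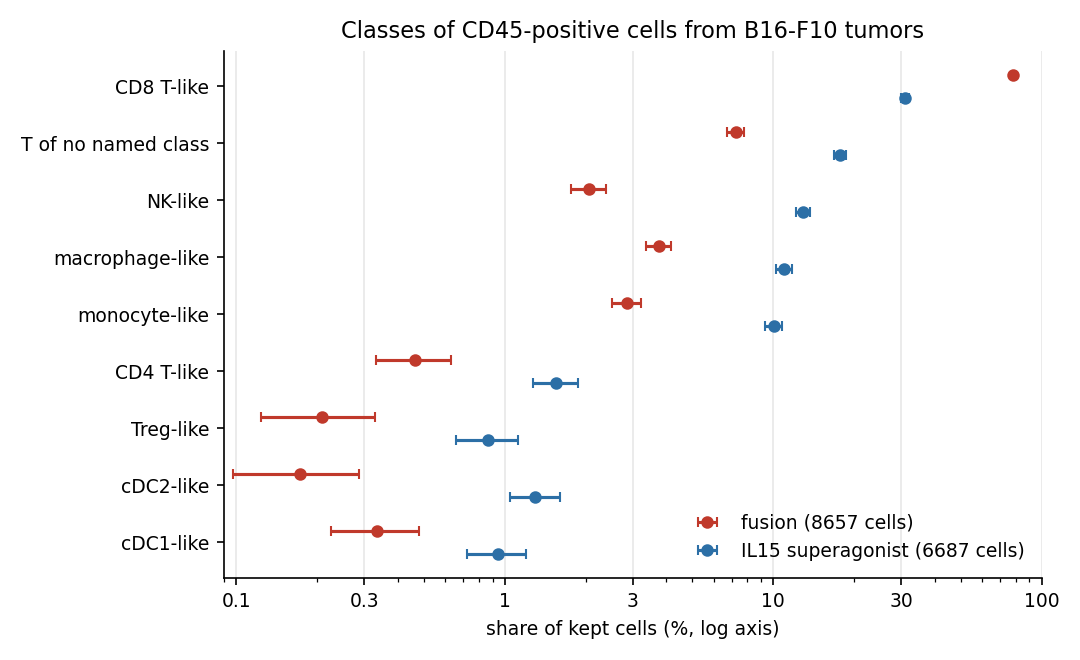
Share of each class among kept cells (percent, log axis) in fusion (upper point of each pair) and IL15 superagonist (lower point); bars are exact 95% binomial intervals for counting error. CD8 T-like cells lie at 78.3% in fusion and 31.0% in IL15 superagonist, and the other 8 classes drawn lie lower in fusion.

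The gates left T cells of no named class, with Cd3 that met none of the T-cell gates. They were 7.24% of fusion cells and 17.7% of IL15 superagonist cells, and cells of no gate were 2.37% in fusion and 9.41% in IL15 superagonist. Cells with markers of T or NK cells and of myeloid cells together, 196 in fusion and 219 in IL15 superagonist, were set aside as possible doublets. Median UMIs of CD8 T-like cells were 9006.5 in fusion and 4496 in IL15 superagonist, a depth gap that can move gates resting on 1 UMI. With each cell thinned to 2000 UMIs, which left out 0 fusion and 20 IL15 superagonist cells, CD8 T-like cells were 70.6% in fusion and 28.2% in IL15 superagonist. NK-like cells were then 1.58% in fusion and 9.70% in IL15 superagonist.

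Within CD8 T-like cells, fusion had higher levels of Gzmb to Gzmg, of Ifitm1 and Ifitm2 and of most measured cell cycle genes, and IL15 superagonist of genes of naive and stem-like T cells and of exit from tissue. UMIs were summed over the class and given as CPM, counts scaled to 1000000 UMIs of the class, 69247498 UMIs in fusion and 12509487 in IL15 superagonist. Of 5060 genes with at least 20 CPM on average, 165 (3.26%) were at least 2-fold higher in fusion and 235 (4.64%) at least 2-fold lower; below, a gene past 2-fold is one of these. The median log2 ratio over all 5060 genes was -0.04. A list of genes is described by how many of its measured members passed 2-fold, to be read against these percentages.

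The largest ratio belonged to Ifitm1, an interferon-induced membrane protein that limits virus entry, at 2472 CPM in fusion and 123 CPM in IL15 superagonist, 20.1-fold higher (19.2 to 21.2). It had a UMI in 63.1% of CD8 T-like cells in fusion and 9.60% in IL15 superagonist, and no single cell held more than 0.200% of the fusion UMIs. Its neighbour Ifitm2 had 1209 CPM in fusion and 114 CPM in IL15 superagonist, 10.6-fold higher. Neither gene is in the interferon lists, which had no member past 2-fold higher. Of 10 measured genes of the type I interferon response, 0 were past 2-fold higher and 2 lower, with Ifi27l2a, an interferon-induced gene, at 248 CPM in fusion and 607 CPM in IL15 superagonist. Of 16 interferon-gamma response genes, 0 were higher and 5 lower, among them Irf1, at 81.2 CPM in fusion and 241 CPM in IL15 superagonist, and Gbp2, a guanylate-binding protein, at 17.2 CPM in fusion and 70.0 CPM in IL15 superagonist.

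Granzymes are serine proteases that killer lymphocytes deliver into target cells. Gzmf had 2831 CPM in fusion and 257 CPM in IL15 superagonist, 11.0-fold higher (10.7 to 11.4), Gzmd 638 CPM in fusion and 84.7 CPM in IL15 superagonist, and Gzme 558 CPM in fusion and 88.7 CPM in IL15 superagonist. Gzmc had 1616 CPM in fusion and 335 CPM in IL15 superagonist, 4.82-fold higher (4.68 to 4.98). Gzmb, the best known of them, had 3891 CPM in fusion and 1393 CPM in IL15 superagonist, 2.79-fold higher (2.75 to 2.84). Gzmg was lower in level, at 77.3 CPM in fusion and 4.88 CPM in IL15 superagonist, 15.9-fold higher (12.3 to 20.8). It is outside the ranked genes, as its level was under 10% of that in fusion cells of no gate; there 1 cell held 98.9% of its 815 UMIs. These 6 were the members past 2-fold among the 17 measured cytotoxic genes, and 0 were lower.

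The other cytotoxic genes differed less. The pore-forming protein Prf1 had 304 CPM in fusion and 208 CPM in IL15 superagonist, a ratio of 1.46, and Gzma 899 CPM in fusion and 1034 CPM in IL15 superagonist, a ratio of 0.869. Both Gzma values were under 10% of the level in NK-like cells of the same library, the limit set for free RNA. Gzmk, typical of effector memory cells, had 135 CPM in fusion and 228 CPM in IL15 superagonist.

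The 6 granzymes lie together on mouse chromosome 14, on the minus strand. The 250 bases before the start of 4 of them are printed to show how alike these neighbours are there. They lie upstream of the transcripts, so they do not show how far reads are shared. Capitals mark bases that do not match Gzmd in a pairwise alignment; windows and sequences are from RefSeq on GRCm38.p6, 5' to 3' on the gene's strand, for Gzmd chr14:56132594-56132843, Gzme chr14:56120626-56120875, Gzmc chr14:56234658-56234907 and Gzmf chr14:56211408-56211657.
Gzmd: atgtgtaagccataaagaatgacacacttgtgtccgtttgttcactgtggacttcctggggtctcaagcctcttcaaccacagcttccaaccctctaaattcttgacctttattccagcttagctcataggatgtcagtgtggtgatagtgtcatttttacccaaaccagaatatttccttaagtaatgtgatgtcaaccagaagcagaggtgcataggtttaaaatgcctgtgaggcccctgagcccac
Gzme: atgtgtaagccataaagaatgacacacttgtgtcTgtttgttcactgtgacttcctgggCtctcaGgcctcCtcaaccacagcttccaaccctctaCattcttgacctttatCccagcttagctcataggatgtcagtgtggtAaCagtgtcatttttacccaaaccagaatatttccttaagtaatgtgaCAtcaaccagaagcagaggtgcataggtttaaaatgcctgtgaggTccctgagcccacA
Gzmc: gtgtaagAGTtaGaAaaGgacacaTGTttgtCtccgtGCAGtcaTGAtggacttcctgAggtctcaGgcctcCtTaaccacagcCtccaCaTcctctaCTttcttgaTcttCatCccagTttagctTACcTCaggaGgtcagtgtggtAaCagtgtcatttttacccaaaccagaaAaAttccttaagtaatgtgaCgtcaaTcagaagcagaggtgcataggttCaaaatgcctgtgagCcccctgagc
Gzmf: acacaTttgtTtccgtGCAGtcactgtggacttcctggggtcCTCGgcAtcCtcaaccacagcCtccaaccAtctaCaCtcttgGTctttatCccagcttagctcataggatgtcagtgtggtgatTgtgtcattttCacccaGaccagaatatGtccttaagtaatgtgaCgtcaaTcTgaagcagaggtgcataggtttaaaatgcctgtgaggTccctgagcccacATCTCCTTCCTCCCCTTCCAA
Gzmd and Gzme were identical in 238 of 251 aligned columns (94.8%), Gzmc and Gzmd in 80.5%, Gzmd and Gzmf in 74.5%, and Gzmb and Gzmd in 44.9%. The motif TTCNNNGAA, which STAT proteins bind and which reads the same on both strands, was in 8.3% of 32851 RefSeq promoters of 300 bases (250 before and 50 after the start). It occurred 0 times in the windows of Gzmc, Gzmd, Gzme, Gzmf and Gzmg, 1 time in that of Gzmb and 2 times in that of Cish, a feedback gene of STAT5 signalling. Transcript sequences were not compared. How any reads shared between Gzmd and Gzme were counted is not stated in the labels. The split between them is therefore uncertain, and their values are best read together.

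Genes of cell division formed another group. Of 29 measured cell cycle genes, 26 were past 2-fold higher in fusion and 0 lower; the list's median log2 ratio was 1.63, against -0.04 over all genes. Rrm2, a subunit of the enzyme that makes DNA building blocks, had 240 CPM in fusion and 45.3 CPM in IL15 superagonist, 5.30-fold higher (4.87 to 5.77). Tk1, thymidine kinase, had 131 CPM in fusion and 31.0 CPM in IL15 superagonist, and Mki67, the Ki-67 protein, 221 CPM in fusion and 71.5 CPM in IL15 superagonist, 3.09-fold higher (2.89 to 3.31). The 3 members short of 2-fold were Pcna, Mcm6 and Mcm7. Tcf19 and Fbxo5, which are outside the list and are among the 10 largest ratios, were 4.66-fold and 4.15-fold higher in fusion. In the 583 fusion and 862 IL15 superagonist cells with at most 1 UMI of the list, which by this choice hold little of its RNA, the log2 ratios of Mki67, Rrm2 and Tcf19 were -0.36, -0.19 and -0.12.

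The opposite group was that of naive, stem-like and circulating T cells: of 16 measured stem-like and memory genes, 13 were past 2-fold lower in fusion and 0 higher, with a median of -2.23. Ccr7, the receptor that guides T cells into lymph nodes, had 13.5 CPM in fusion and 420 CPM in IL15 superagonist, 31.1-fold lower (29.0 to 33.4). Tcf7, the transcription factor TCF-1 of stem-like T cells, had 9.62 CPM in fusion and 86.5 CPM in IL15 superagonist, 8.99-fold lower (8.16 to 9.92). Il7r, the receptor of interleukin 7 on resting cells, had 21.2 CPM in fusion and 152 CPM in IL15 superagonist. The 1 member of the list with a log2 ratio above 0 was Bcl2, a survival gene, at 119 CPM in fusion and 80.8 CPM in IL15 superagonist.

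Receptors for homing and exit overlapped with that list. S1pr1, with which lymphocytes leave tissue, had 5.81 CPM in fusion and 93.8 CPM in IL15 superagonist, 16.2-fold lower (14.4 to 18.1). Cxcr4 had 19.6 CPM in fusion and 156 CPM in IL15 superagonist, 7.97-fold lower. Klf3, a transcription factor, was 17.3-fold lower in fusion, Pde2a, a phosphodiesterase, 13.8-fold, Satb1, a chromatin organizer, 6.88-fold, and Penk, the precursor of enkephalin peptides, 12.1-fold. Of 16 measured chemokine receptor, egress and residency genes, 9 were lower and 0 higher. Those past neither limit included Cxcr6, a receptor of tissue T cells, at 201 CPM in fusion and 269 CPM in IL15 superagonist.

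**Figure D2:**
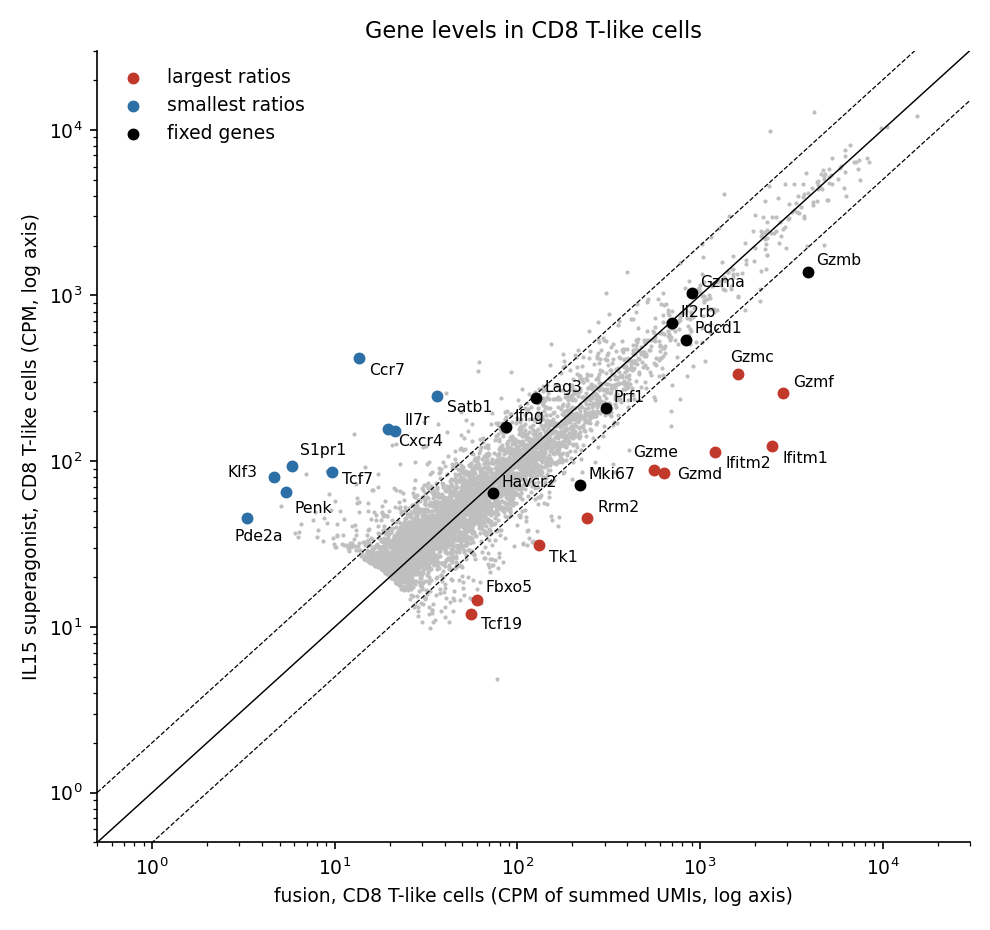
Level of each of 5060 genes in CD8 T-like cells in fusion (x axis) and IL15 superagonist (y axis), in CPM of summed UMIs on log axes; the solid line is equality and dashed lines are 2-fold. Ifitm1 at 2472 CPM in fusion and 123 CPM in IL15 superagonist lies farthest below the line among the named genes, and Ccr7 at 13.5 CPM in fusion and 420 CPM in IL15 superagonist farthest above it.

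Receptor chains of interleukin 15 were less than 2-fold apart in CD8 T-like cells. Il2rb had 706 CPM in fusion and 684 CPM in IL15 superagonist, a ratio of 1.03 (1.01 to 1.06), and Il2rg 308 CPM in fusion and 440 CPM in IL15 superagonist. Of 15 measured receptor and STAT5 target genes, 1 was past 2-fold higher and 3 lower. The higher one was Socs2, a feedback inhibitor of cytokine signalling, at 40.2 CPM in fusion and 11.5 CPM in IL15 superagonist. The lower ones were Socs3, Pim1 and Pim2, the last pair being kinases of the STAT5 response; Pim1 had 123 CPM in fusion and 255 CPM in IL15 superagonist. Cish had 173 CPM in fusion and 111 CPM in IL15 superagonist, 1.56-fold higher (1.48 to 1.65).

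Pdcd1 had 841 CPM in fusion and 542 CPM in IL15 superagonist, 1.55-fold higher (1.51 to 1.59). At 2000 UMIs per cell it had a UMI in 77.0% of CD8 T-like cells in fusion and 45.1% in IL15 superagonist, against 1.19% in fusion and 0.535% in IL15 superagonist of macrophage-like cells, which should lack it. Of 14 measured inhibitory and exhaustion genes, 1 was past 2-fold higher, the receptor Cd244 at 43.9 CPM in fusion and 19.2 CPM in IL15 superagonist. Lower were Tigit, at 207 CPM in fusion and 439 CPM in IL15 superagonist, and Lilr4b. Lag3 had 127 CPM in fusion and 239 CPM in IL15 superagonist, Tox, a transcription factor of exhausted cells, 68.9 CPM in fusion and 112 CPM in IL15 superagonist, and Havcr2, encoding TIM-3, 73.4 CPM in fusion and 64.0 CPM in IL15 superagonist. These genes lay on both sides of equality.

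Among 11 measured cytokines, 6 were past 2-fold lower in fusion and 1 higher. Csf2, encoding GM-CSF, was the higher one, at 28.7 CPM in fusion and 13.3 CPM in IL15 superagonist. The chemokines Ccl5, at 2431 CPM in fusion and 9788 CPM in IL15 superagonist, Ccl4, Ccl3, Ccl9 and Ccl1 and the peptide gene Penk were lower. Ifng, the main cytokine of antitumor T cells, had 86.6 CPM in fusion and 161 CPM in IL15 superagonist, 1.86-fold lower (1.77 to 1.95). The share of cells with an Ifng UMI was not lower, at 26.6% in fusion and 16.8% in IL15 superagonist, and at 2000 UMIs per cell 9.32% in fusion (8.603% to 10.1%) and 8.23% in IL15 superagonist (7.03% to 9.57%), so no order is read from the level. Myeloid RNA moved with part of this group: the 9 macrophage markers summed to 53.4 CPM in CD8 T-like cells of fusion and 229 CPM in those of IL15 superagonist, all 9 detected in both, and Lyz2 had 30.9 CPM in fusion and 172 CPM in IL15 superagonist. Class II genes, which mouse T cells largely lack, were 4 of 4 lower, with Cd74 at 61.6 CPM in fusion and 398 CPM in IL15 superagonist, and Il1b was lower as well. The part of this RNA in the chemokine values was not tested.

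Of 11 measured NK-cell receptor genes, 2 were higher in CD8 T-like cells of fusion and 3 lower. Fcer1g, a signalling adaptor of NK and myeloid cells, was higher at 697 CPM in fusion and 202 CPM in IL15 superagonist, while Tyrobp, the adaptor DAP12, was lower at 48.8 CPM in fusion and 198 CPM in IL15 superagonist. The Tyrobp value of IL15 superagonist was under 10% of the 4475 CPM in its NK-like cells, the limit set for free RNA. Klrg1, a marker of terminal effector cells, had 10.2 CPM in fusion and 30.5 CPM in IL15 superagonist, 2.996-fold lower, at a level that free RNA can give. Of 17 genes of glycolysis and 20 of oxidative phosphorylation, 0 were past 2-fold in either direction, with medians of 0.31 and 0.28. Of 16 measured immediate early and heat shock genes, 2 were lower, Fos and Junb, and 0 higher.

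**Figure D3:**
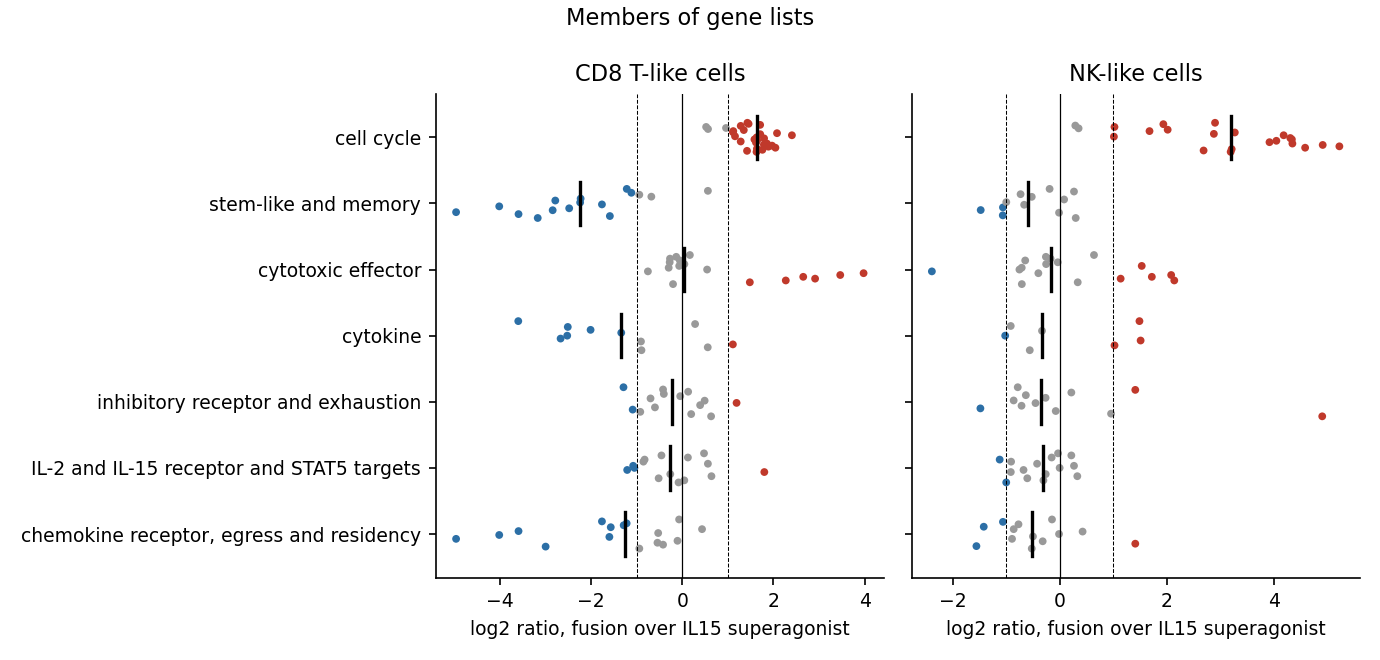
Log2 ratio of CPM, fusion over IL15 superagonist, for each measured member (point) of 7 gene lists in CD8 T-like and NK-like cells; black bars are medians and dashed lines are 2-fold. In CD8 T-like cells the cell cycle median is 1.63 and the stem-like and memory median -2.23; in NK-like cells the cell cycle median is 3.20.

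The division and granzyme genes were counted cell by cell after thinning each cell to 2000 UMIs, which removes the depth gap. At least 2 UMIs of cell cycle genes were found in 77.0% of 6116 CD8 T-like cells of fusion (75.9% to 78.0%) and in 27.7% of 1883 of IL15 superagonist (25.7% to 29.8%). At least 2 UMIs of Gzmc, Gzmd, Gzme, Gzmf or Gzmg were found in 45.9% in fusion and 6.90% in IL15 superagonist, against 1.78% and 0.401% of macrophage-like cells in these libraries. Beside this, both features together occurred in 37.0% in fusion and 3.51% in IL15 superagonist, and the granzymes without cycling in 8.94% in fusion and 3.40% in IL15 superagonist. Cycling without these granzymes occurred in 40.0% in fusion and 24.2% in IL15 superagonist.

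The T-cell receptor gene segments of the beta chain gave a view that the gates and lists did not use. A segment could be assigned, with at least 2 UMIs and at least 80% of a cell's Trbv UMIs, to 4217 CD8 T-like cells of fusion and 1470 of IL15 superagonist. Trbv19 was most frequent in both, in 17.5% in fusion and 19.4% in IL15 superagonist. Trbv16 was in 17.1% in fusion (15.97% to 18.3%) and 5.99% in IL15 superagonist (4.83% to 7.32%), and Trbv20 in 8.77% in fusion and 2.99% in IL15 superagonist. Trbv1 went the other way, with 0.877% in fusion and 9.32% in IL15 superagonist. The effective number of segments was 9.79 in fusion and 11.0 in IL15 superagonist, out of 22 seen in fusion and 23 in IL15 superagonist. With 1 library per treatment the mouse and the treatment cannot be told apart.

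NK-like cells, few in fusion, had more RNA of most cell cycle genes measured and of Gzmc, Gzmd, Gzme and Gzmf in fusion, while Gzma and Gzmk were lower. Of 5043 genes measured, 172 (3.41%) were past 2-fold higher in fusion and 145 (2.88%) lower. Beside the cell cycle genes Ccna2, Asf1b, Birc5 and Cdca8, between 30.8-fold and 39.3-fold higher, the leading gene was Pdcd1, at 422 CPM in fusion and 14.04 CPM in IL15 superagonist, 30.0-fold higher (22.4 to 41.1). Of 22 measured cell cycle genes 20 were higher and 0 lower, with Mki67 at 106 CPM in fusion and 11.5 CPM in IL15 superagonist. At 2000 UMIs, at least 2 cell cycle UMIs were found in 22.6% of NK-like cells in fusion (15.9% to 30.6%) and 16.2% in IL15 superagonist (13.5% to 19.3%), intervals that overlap, and at least 10 in 10 of 137 cells in fusion (7.30%) and 2 of 647 in IL15 superagonist (0.309%).

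By summed UMIs, Gzmc was the most abundant granzyme of fusion NK-like cells, at 10541 CPM in fusion and 2400 CPM in IL15 superagonist, 4.39-fold higher (4.27 to 4.52). A Gzmc UMI was found in 86 of the 178 fusion cells and a Gzma UMI in 144. Gzmd, Gzme and Gzmf were also past 2-fold higher, and Gzmf had 1991 CPM in fusion and 472 CPM in IL15 superagonist. Gzma, the main granzyme of resting NK cells, had 9345 CPM in fusion and 15287 CPM in IL15 superagonist, 1.64-fold lower, and Gzmk 33.9 CPM in fusion and 180 CPM in IL15 superagonist, 5.31-fold lower. Prf1 had 616 CPM in fusion and 1040 CPM in IL15 superagonist. Gzmb had 3118 CPM in fusion and 2476 CPM in IL15 superagonist, a ratio of 1.26, and Gzmg 274 CPM in fusion and 363 CPM in IL15 superagonist, a ratio of 0.756. For Gzmg, 1 cell held 65.0% of the UMIs in fusion and 1 cell 51.9% of those in IL15 superagonist. A Gzmg UMI was found in 18 of 178 cells in fusion and 14 of 864 in IL15 superagonist, so no order is read from its level. Of the 17 measured cytotoxic genes 5 were past 2-fold higher, 1 lower and 11 neither, with a median of -0.17. Tnfsf10, the death ligand TRAIL, was past 2-fold higher, at 33.9 CPM in fusion and 11.8 CPM in IL15 superagonist.

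**Figure D4:**
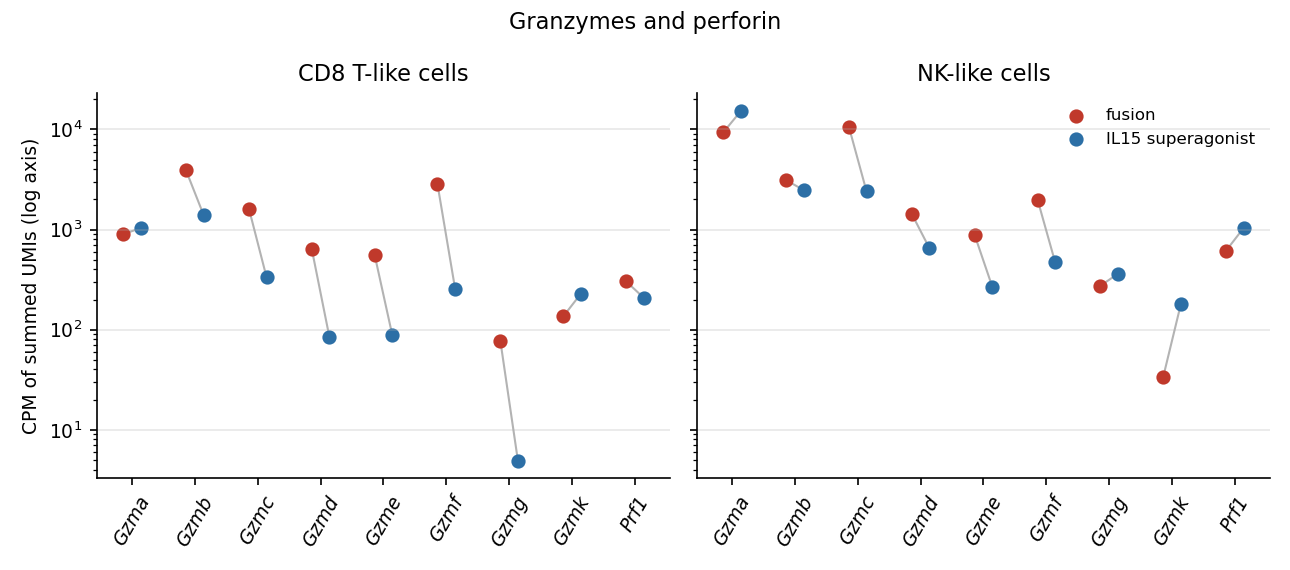
Levels of granzymes and perforin in CD8 T-like and NK-like cells of fusion (left point of each pair) and IL15 superagonist (right point), in CPM of summed UMIs on a log axis. In CD8 T-like cells Gzmf lies at 2831 CPM in fusion and 257 CPM in IL15 superagonist. In NK-like cells Gzmc lies at 10541 CPM in fusion and 2400 CPM in IL15 superagonist, while Gzma, Gzmk and Prf1 are lower in fusion. Gzmg is also drawn lower there, but in each library 1 cell held most of its UMIs.

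Of 22 measured NK-cell receptor genes, 6 were past 2-fold lower in fusion and 1 higher. The lower ones were the Ly49 family members Klra1, Klra7, Klra8 and Klra9, with Klra8 at 121 CPM in fusion and 403 CPM in IL15 superagonist, and the receptors Klrg1 and Klrb1b. The higher one was the activating receptor Cd226, at 63.0 CPM in fusion and 18.0 CPM in IL15 superagonist. Among 7 cytokines, Xcl1, Spp1 and Ccl1 were higher and Ccl3 lower. Xcl1, which draws cDC1 cells, had 1078 CPM in fusion and 532 CPM in IL15 superagonist. Il2rb had 1109 CPM in fusion and 1372 CPM in IL15 superagonist. The 5 lowest ratios were those of Gzmk, Tgfa, a growth factor, 5.57-fold lower in fusion, Khdc1a, Khdc1c and Mirt1.

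Pdcd1 and Gzmc lay in part of the fusion NK-like cells, a split made after their values were seen. A Pdcd1 UMI was found in 58 of 178 cells in fusion, or 32.6% (25.8% to 40.0%), and in 19 of 864 in IL15 superagonist, or 2.20% (1.33% to 3.41%), beside 4.00% and 2.05% of macrophage-like cells. Fusion cells with the UMI had a median of 9061 UMIs and those without 3499; at 2000 UMIs the shares were 19.0% in fusion and 1.70% in IL15 superagonist. Gzmc had 17840 CPM in fusion cells with a Pdcd1 UMI and 1796 CPM in those without, and Gzmf 3587 CPM and 78.8 CPM. Gzma went the other way, at 6934 CPM in fusion cells with the UMI and 12234 CPM in those without. Klra4, a Ly49 receptor, had 64.0 CPM in cells with the UMI and 584 CPM in those without, and Eomes, a transcription factor of mature NK cells, 35.6 CPM and 204 CPM. Of T-cell genes, the cells with the UMI had Cd3g at 65.8 CPM, against 42.6 CPM in those without, Cd8a at 1.78 CPM, against 17.0 CPM, and Cd5 with 0 UMIs, against 2, while Trbc2 had 64.0 CPM, against 53.3 CPM. Most NK genes read were lower in the cells with the UMI: Tyrobp had 2435 CPM, against 3898 CPM in those without, the gate marker Ncr1 341 CPM, against 498 CPM, Klrb1c 283 CPM, against 464 CPM, and Klre1 313 CPM, against 498 CPM. The adaptor Fcer1g had 3145 CPM in the cells with the UMI and 2678 CPM in those without. In IL15 superagonist, Gzmc had 3773 CPM in the 19 cells with the UMI and 2365 CPM in those without. Gzmf went the other way there, at 33.6 CPM, against 483 CPM.

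T cells of no named class held Tyrobp in 75.1% in fusion and 57.8% in IL15 superagonist and Trdc, the constant gene of the delta chain, in 14.5% in fusion and 16.6% in IL15 superagonist. Division and Gzmc were higher here too: Mki67 had 117 CPM in fusion and 8.06 CPM in IL15 superagonist, 14.5-fold higher (10.2 to 21.3), and Gzmc 1257 CPM in fusion and 217 CPM in IL15 superagonist. Gzma had 3852 CPM in fusion and 4642 CPM in IL15 superagonist.

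In CD4 T-like cells, from 40 fusion and 104 IL15 superagonist cells, values are given with no count of genes. Il7r had 83.6 CPM in fusion and 761 CPM in IL15 superagonist and was found in 8 of 40 cells and 76 of 104 cells. Ifng had 359 CPM in fusion and 59.9 CPM in IL15 superagonist, in 16 of 40 cells and 10 of 104 cells. Mki67 had 187 CPM in fusion and 20.8 CPM in IL15 superagonist. Treg-like cells, at 18 and 58 cells, had Foxp3, which their gate requires, at 613 CPM in fusion and 483 CPM in IL15 superagonist. Of genes the gate does not use, Ctla4, an inhibitory receptor, had 1594 CPM in fusion and 1443 CPM in IL15 superagonist. Ikzf2, encoding Helios, had 1022 CPM in fusion and 690 CPM in IL15 superagonist. Gzma in Treg-like cells had 92.0 CPM in fusion, from 2 cells, and 2179 CPM in IL15 superagonist, from 17 cells. RNA of other cell types moved with it in Treg-like cells: the 10 NK markers summed to 797 CPM in fusion, 7 of them detected, and 3680 CPM in IL15 superagonist, all 10 detected. The 9 macrophage markers summed to 30.7 CPM in fusion, with 2 detected, and 621 CPM in IL15 superagonist, and the 8 cDC2 markers to 429 CPM in fusion and 5098 CPM in IL15 superagonist. The part of this RNA in the Treg-like values was not tested.

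Macrophage-like cells differed in few genes. Of 4879 measured, 16 (0.328%) were past 2-fold higher in fusion and 42 (0.861%) lower; with ratios centred on their median the counts were 27 and 36. Pdcd1lg2, encoding the PD-1 ligand PD-L2, led the higher genes, at 80.1 CPM in fusion and 21.4 CPM in IL15 superagonist, 3.74-fold higher (2.99 to 4.69), with a UMI in 28.0% of cells in fusion and 12.7% in IL15 superagonist. Cd274, encoding PD-L1, had 172 CPM in fusion and 109 CPM in IL15 superagonist, a ratio of 1.57 (1.39 to 1.77). Ly6i, a surface protein of the Ly6 family, was 3.44-fold higher, the neutrophil-attracting chemokine Cxcl3 3.17-fold, the protein C receptor Procr 3.10-fold and the cystine transporter Slc7a11 2.71-fold. A single cell held 23.9% of the Cxcl3 UMIs in fusion.

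Of 20 measured inflammatory myeloid genes, 4 were past 2-fold higher in macrophage-like cells and 0 lower. They were Cxcl3, Tnf, at 504 CPM in fusion and 240 CPM in IL15 superagonist, Il1a and Nos2, the inducible nitric oxide synthase, at 80.1 CPM in fusion and 39.7 CPM in IL15 superagonist, 2.02-fold higher (1.66 to 2.44). Arg1, the arginine-degrading enzyme of suppressive macrophages, had 2088 CPM in fusion and 939 CPM in IL15 superagonist, 2.22-fold higher (2.14 to 2.31). It was the 1 higher gene of 18 measured alternatively activated and suppressive genes, where 3 were lower: Apoe, at 1351 CPM in fusion and 3168 CPM in IL15 superagonist, the cytokine Il10 and the folate receptor Folr2. The interferon-inducible chemokine Cxcl9 had 521 CPM in fusion and 765 CPM in IL15 superagonist and the class II gene H2-Ab1 4154 CPM in fusion and 3685 CPM in IL15 superagonist.

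The lower genes of macrophage-like cells were led by Gas6 and Cx3cr1. Gas6, a ligand of receptors that take up dead cells, had 8.48 CPM in fusion and 51.5 CPM in IL15 superagonist, 6.08-fold lower (3.87 to 10.1). Cx3cr1, the fractalkine receptor, was 5.79-fold lower, Igfbp4 4.11-fold, the growth factor Igf1 3.52-fold and the iron carrier Trf 3.17-fold. Igf1 had a UMI in 13.5% of cells in fusion and 28.5% in IL15 superagonist. Of 12 measured cell cycle genes 0 were higher and 4 lower, among them Mcm5, at 11.4 CPM in fusion and 29.5 CPM in IL15 superagonist.

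Monocyte-like cells held RNA of lymphocytes, and its makeup differed between the libraries. Gzmc had 565 CPM in fusion and 266 CPM in IL15 superagonist, and Pdcd1 47.8 CPM in fusion and 7.19 CPM in IL15 superagonist. Other lymphocyte genes were lower in fusion. Gzma had 234 CPM in fusion and 1275 CPM in IL15 superagonist, the NK receptor Klra4 a UMI in 0 of 246 cells in fusion, which allows a share of up to 1.22%, and in 42 of 673 cells in IL15 superagonist. Cells with under 5 UMIs of Lyz2, the lysozyme of myeloid cells, were 12.6% in fusion and 23.5% in IL15 superagonist. Of 4847 genes measured, 27 (0.557%) were past 2-fold higher in fusion and 88 (1.82%) lower. With at least 5 Lyz2 UMIs also required, a gate added after the values were seen, 215 cells in fusion and 515 in IL15 superagonist remained, and 28 genes were higher and 41 lower. The values below are those of this stricter gate, unless said otherwise.

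Arg1 had 1095 CPM in fusion and 231 CPM in IL15 superagonist, 4.73-fold higher (4.35 to 5.16), against 5.38-fold without the Lyz2 limit. Nos2 had 77.7 CPM in fusion and 16.5 CPM in IL15 superagonist, 4.71-fold higher (3.40 to 6.59). Eno3, a glycolytic enzyme, was 6.30-fold higher, Gdf15, a stress-induced cytokine, 4.98-fold and Slc7a2, a transporter of arginine, 3.43-fold. Gdf15 rested on few cells, since without the Lyz2 limit 1 cell held 63.8% of its 58 UMIs in fusion. Il1a was 2.59-fold higher, Upp1, uridine phosphorylase, 2.42-fold and Tnf 1.71-fold, whereas Cxcl9 was 2.01-fold lower.

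The lower genes that withstood the Lyz2 limit in monocyte-like cells included Timp1, an inhibitor of matrix proteases, at 13.7 CPM in fusion and 90.01 CPM in IL15 superagonist, 6.58-fold lower, and Dmkn, at 23.0 CPM in fusion and 113 CPM in IL15 superagonist, 4.90-fold lower. Gzmg did not: it was 6.99-fold lower without the limit, where 1 cell held 76.7% of its 557 UMIs in IL15 superagonist, and with it had 6 UMIs in fusion and 3 in IL15 superagonist. Atp1b1 and Satb1, 7.17-fold and 7.09-fold lower without the limit, were still lower with it but rested on 1 and 2 UMIs in fusion. Gzma was 1.26-fold higher in fusion with the limit.

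**Figure D5:**
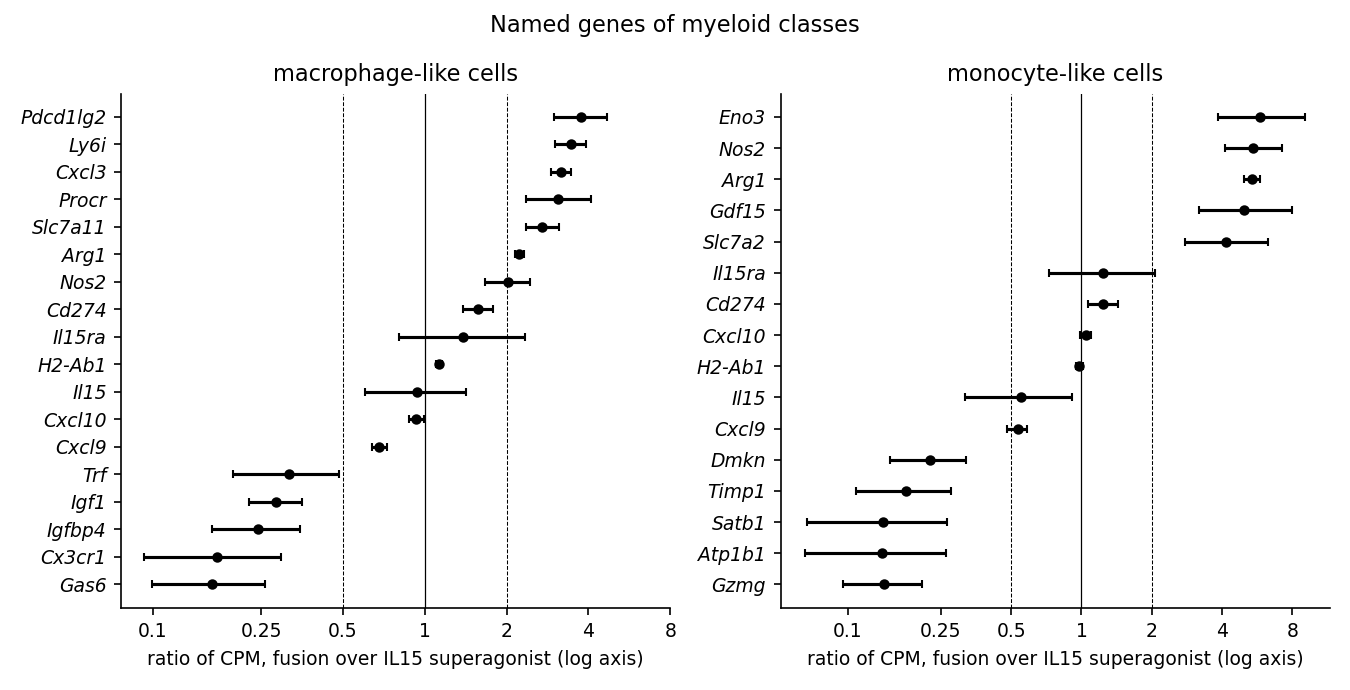
Ratio of CPM, fusion over IL15 superagonist (log axis), for the named genes of macrophage-like and monocyte-like cells, the monocyte-like values without the Lyz2 limit; bars are exact 95% intervals for counting error and dashed lines are 2-fold. Pdcd1lg2 lies at 3.74 in macrophage-like cells, and Nos2 and Arg1 at 5.43 and 5.38 in monocyte-like cells.

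Dendritic cells were too few for a count of genes. The cDC1-like cells, 29 in fusion and 63 in IL15 superagonist, had levels of their defining genes within counting error, with Clec9a, a receptor for dead cells, at 512 CPM in fusion and 435 CPM in IL15 superagonist and Irf8 at 1394 CPM in fusion and 1393 CPM in IL15 superagonist. Their Cxcl9 level was 171 CPM in fusion and 536 CPM in IL15 superagonist. The 9 macrophage markers differed alike in these cells, at 525 CPM in fusion, with 5 detected, and 1838 CPM in IL15 superagonist, with 9 detected, and Lyz2 had 410 CPM in fusion and 899 CPM in IL15 superagonist; their part in the Cxcl9 values was not tested. Ccr7 had 495 CPM in fusion and 20.6 CPM in IL15 superagonist, but 1 of the 29 cells held 82.1% of its UMIs. In cDC2-like cells, 15 in fusion and 87 in IL15 superagonist, Ccr7 had 45.3 CPM in fusion and 350 CPM in IL15 superagonist, from 3 and 23 cells, and H2-Ab1 had 9498 CPM in fusion and 8396 CPM in IL15 superagonist.

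Across classes, Il2rb had ratios, fusion over IL15 superagonist, between 0.808 and 1.22 in the 5 lymphoid classes, with levels from 625 CPM in CD4 T-like cells to 1109 CPM in NK-like cells of fusion, and from 513 CPM to 1372 CPM in these classes of IL15 superagonist. Gzmc was higher in fusion in each of the 5 lymphoid classes, with the Treg-like value of 797 CPM in fusion and 135 CPM in IL15 superagonist resting mostly on 1 cell, which held 94.9% of the fusion UMIs. It was also higher in the myeloid classes, with 33.1 CPM in fusion and 7.49 CPM in IL15 superagonist in macrophage-like cells. Monocyte-like cells had 565 CPM and 266 CPM in these libraries. Fusion values of the myeloid, Treg-like and CD4 T-like classes were under 10% of the 10541 CPM in NK-like cells, the limit set for free RNA. The part of free RNA in these Gzmc values was not tested. Ifitm1 was higher in fusion in 8 of the 9 classes, by 20.1-fold in CD8 T-like cells, 5.11-fold in cDC1-like cells (3.62 to 7.27), 3.20-fold in NK-like cells (2.73 to 3.76), 2.88-fold in T cells of no named class (2.52 to 3.29) and 2.52-fold in CD4 T-like cells (1.76 to 3.61). Its ratio was 1.76 in cDC2-like, 1.71 in monocyte-like and 1.33 in macrophage-like cells. In Treg-like cells it had 61.3 CPM in fusion, from 6 UMIs, and 348 CPM in IL15 superagonist. In fusion, T cells of no named class had 220 CPM of Ifitm1 and macrophage-like cells 108 CPM. Both were under 10% of the 2472 CPM in CD8 T-like cells, the limit set for free RNA. NK-like, monocyte-like and cDC1-like cells were just above it, at 288, 279 and 305 CPM. CD4 T-like cells had 374 CPM and cDC2-like cells 2325 CPM. The part of free RNA in the Ifitm1 ratios outside CD8 T-like cells was not tested. Pdcd1 in CD4 T-like cells had 772 CPM in fusion and 401 CPM in IL15 superagonist.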

How the data were processed

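Single-cell RNA was read with a 5' droplet kit, and the deposited files hold raw UMI counts per gene and barcode, 28692 genes in all. Cell Ranger 2.1.1 and the mm10 build are named per the submitters' processing notes; how reads shared by alike genes were counted is not stated there. Python 3.11.15 with numpy 2.4.6, scipy 1.17.1 and pandas 2.3.3 was used. Members and gene lists were chosen with earlier results of these data known. Barcodes with over 10% mitochondrial UMIs were left out. A macrophage-like cell needed 2 C1q UMIs and a monocyte-like cell 2 UMIs of Ly6c2 and Chil3. No doublet caller was run: cells with markers of T or NK cells and myeloid cells were set aside, and doublets within a lineage remain.

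Counts were summed per class and library, scaled to CPM, and compared as log2 ratios with 0.5 UMIs added, in classes with at least 50 cells on both sides. Genes needed a mean of 20 CPM and 30 UMIs; those past 2-fold were counted. Intervals are exact (Clopper-Pearson for shares, conditional on the sum for ratios), at 95%, and cover counting error only; a count of 0 allows up to 3. Named genes were the 10 highest and 10 lowest ratios in CD8 T-like cells and 5 and 5 in other classes, plus fixed genes and examples from the lists. The ranking left out gate markers, ribosomal, mitochondrial and receptor segment genes, and genes under 10% of the CPM of the class with most. Library totals and depths are given above. With 1 library a side there was no test. The calculation was tested on simulated counts. A few results are not reported here.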

Additional observations from a re-analysis of the deposited data

Results flagged for a closer look

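Cells that met no gate, which the comparisons did not use, held RNA of genes listed as markers of cell types outside the classes, as named classes also did. The 6 plasmacytoid dendritic cell markers summed to 429 CPM in fusion and 288 CPM in IL15 superagonist, and Siglech, a surface lectin of these cells, had a UMI in 3 of 205 cells in fusion and 3 of 629 in IL15 superagonist. Markers of group 2 innate lymphoid cells summed to 346 CPM in fusion and 237 CPM in IL15 superagonist, with 4 of 7 detected in fusion and 7 of 7 in IL15 superagonist. Their receptor Il1rl1 had a UMI in 0 of 205 cells in fusion, which allows a share of up to 1.46%, and in 5 of 629 cells in IL15 superagonist. Named classes had higher sums. The plasmacytoid markers reached 746 CPM in fusion and 703 CPM in IL15 superagonist in monocyte-like cells. Those of group 2 innate lymphoid cells reached 920 CPM in fusion and 1881 CPM in IL15 superagonist in CD4 T-like cells. The sums therefore do not by themselves mark such cell types. Both sums in cells of no gate came out because they exceed those of IL15 superagonist, and their source was not tested.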

How the results depend on the processing

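With 1 library a side, depth and library cannot be told from treatment, and no alternative replaces a replicate. No paired analysis was possible because each treatment has 1 library. Class share ratios kept their direction under every alternative run, with CD8 T-like cells between 2.41 and 2.70 and NK-like cells between 0.157 and 0.182. The ratio was 2.70 for CD8 T-like cells with 1 more UMI per gate, 0.442 for CD4 T-like cells at a common lowest UMI count and 0.356 for monocyte-like cells at 2000 UMIs per cell. Genes past 2-fold numbered 911 in CD8 T-like, 735 in NK-like, 238 in macrophage-like and 427 in monocyte-like cells with the minimum at 5 CPM, against 400, 317, 58 and 115. They numbered 508 in NK-like cells with 1 more UMI per gate, 117 in macrophage-like and 285 in monocyte-like cells at 2000 UMIs, and 69 in monocyte-like cells with the Lyz2 limit, which was chosen after seeing the data. Counting cells equally gave 245 higher and 254 lower genes in CD8 T-like cells. In NK-like cells 139 were higher and 188 lower at 2000 UMIs. Log2 ratios that reversed were those of Rrm2 (-0.19), Tcf19 (-0.12) and Mki67 (-0.36) in CD8 T-like cells without cycling cells, by that choice itself. In monocyte-like cells, Gzmg reversed to 0.45 at 2000 UMIs and to 2.26 with the Lyz2 limit, and the NK-cell receptor list median to 0.16 with the Lyz2 limit; the cause was not tested. Of the 23 named CD8 T-like genes past 2-fold, 20 kept their direction and 18 stayed past 2-fold without cycling cells, and 23 did both under the 6 other settings. The minimum at 5 CPM is among these 6 and does not alter a gene's ratio, so its outcome was fixed. The fewest named genes still past 2-fold were 12 of 15 in NK-like cells at 2000 UMIs, 10 of 12 in macrophage-like cells weighted equally and 8 of 10 in monocyte-like cells at 2000 UMIs.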

Other observations

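Cells of no gate also differed in markers of other cells. Markers of B16 tumor cells summed to 21.6 CPM in fusion and 1025 CPM in IL15 superagonist. Few cells held the tumor gene Pmel, 2 of 205 in fusion (0.976%, 0.118% to 3.48%) and 16 of 629 in IL15 superagonist (2.54%, 1.46% to 4.10%). Neutrophil markers summed to 531 CPM in fusion and 2638 CPM in IL15 superagonist, and B-cell markers to 117 CPM in fusion and 538 CPM in IL15 superagonist. The neutrophil gene S100a8 had a UMI in 6 of 205 cells in fusion and 48 of 629 in IL15 superagonist, whereas Csf3r, another neutrophil gene, had one in 19 of 205 cells in fusion (9.27%) and 57 of 629 in IL15 superagonist (9.06%). The B-cell gene Cd79a had a UMI in 4 of 205 in fusion and 28 of 629 in IL15 superagonist.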
